A study of Mus musculus with 2 samples.

Results

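The 10 imprinted growth genes described here are Igf2, H19, Dlk1, Meg3, Rian, Mirg, Mest, Peg3, Plagl1 and Grb10. They were taken by symbol from the 32285 genes counted, and all 10 were found. Their RNA was counted in single cells of mouse hearts at stage E10.5, as unique molecular identifiers (UMIs), each of which stands for 1 captured RNA molecule. The library labelled knockout came from a pool of 4 hearts of the genotype BubR1fl/fl; Nkx2.5-cre (het), and the library labelled wildtype from a pool of 4 hearts of the genotype BubR1+/+; Nkx2.5-cre (het). Both pools thus carried 1 copy of Nkx2.5-cre, which acts in cardiac progenitors and their descendants. Recombination was not measured, so which knockout-labelled cells kept intact floxed alleles is not known here. BubR1, encoded by Bub1b, is a checkpoint protein of the mitotic spindle. Each genotype has 1 library, so no difference below has a replicate check and no test was possible. Intervals in square brackets are 95% intervals for counting error only, and UMIs of 1 embryo could not be told from those of another in its pool.

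An imprinted gene is expressed mainly from the copy inherited from 1 parent. In the mouse, Igf2, Dlk1, Mest, Peg3 and Plagl1 are known to be expressed from the paternal copy, and H19, Meg3, Rian and Mirg from the maternal copy, as is Grb10 in most tissues. Many of these genes are strongly expressed in the embryo and decline after birth, and several set the size of the fetus. Igf2 encodes insulin-like growth factor 2, a growth signal that the epicardium and endocardium are known to give to the growing myocardium. The UMIs were not split by parental copy, so nothing below speaks of imprinting itself.

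The genes lie at 6 places of the genome, given here for build mm10 with the gene annotation GENCODE vM21. Igf2 (chr7:142650766-142666816) and H19 (chr7:142575529-142578143) are neighbours on the minus strand, with a shared control region between them. Dlk1 (chr12:109452823-109463336), Meg3 (chr12:109541001-109571726), Rian (chr12:109603940-109661716) and Mirg (chr12:109729764-109749460) follow each other on the plus strand of chromosome 12. Mest (chr6:30723547-30748465, plus strand), Peg3 (chr7:6703892-6730431, minus strand), Plagl1 (chr10:13060504-13131694, plus strand) and Grb10 (chr11:11930508-12038683, minus strand) lie apart from them. Igf2, Dlk1, Mest, Peg3, Plagl1 and Grb10 encode proteins, and H19, Meg3, Rian and Mirg are noncoding. Counted genes on the opposite strand overlap Igf2 (Igf2os) and Mest (Gm44296 and the 3' part of Copg2), and the sources used here do not state whether the counting used strand, so their reads may not be fully apart.

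The noncoding members are also hosts of microRNAs, small RNAs that lower the output of messenger RNAs paired with their seed. RefSeq (GRCm38.p6) places 21 microRNA hairpins within 6 of the 10 genes, of which 14 lie in Mirg, 3 in Rian and 1 each in Igf2, H19, Meg3 and Mest. Of these hairpins 6 lie in exons, 5 span an exon edge and 10 lie in introns. They give 40 mature microRNAs with 39 different seeds, and the single seed that is shared belongs to mmu-miR-453 and mmu-miR-496a-5p in introns of Mirg. The sequences below show 1 microRNA of each host gene and the pair with the common seed, 5′ to 3′, with the seed (bases 2 to 8) in capitals.
mmu-miR-483-3p (Igf2, intron): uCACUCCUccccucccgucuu
mmu-miR-675-5p (H19, exon): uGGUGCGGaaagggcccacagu
mmu-miR-770-5p (Meg3, exon): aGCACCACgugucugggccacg
mmu-miR-370-3p (Rian, intron): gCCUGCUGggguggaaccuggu
mmu-miR-410-3p (Mirg, exon): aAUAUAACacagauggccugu
mmu-miR-453 (Mirg, intron): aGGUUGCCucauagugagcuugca
mmu-miR-496a-5p (Mirg, intron): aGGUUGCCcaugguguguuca
mmu-miR-335-5p (Mest, intron): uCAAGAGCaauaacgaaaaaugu
The library kit captures long RNAs with a poly(A) tail, so the microRNAs themselves were not measured and the levels below are those of the host transcripts.

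After filtering, 5966 cells were kept in the library labelled knockout and 7440 in the library labelled wildtype, with medians of 17042.5 and 9504.5 UMIs per cell. Only 8 barcodes were kept in both libraries. Cells were placed in 11 classes by scores over marker lists, and 944 knockout-labelled and 1737 wildtype-labelled cells were left in no class. The 6 classes compared were cardiomyocytes (629 and 677 cells), endothelial/endocardial cells (697 and 1310), cushion/outflow mesenchymal cells (311 and 487), epicardial cells (1936 and 827), erythroid cells (1186 and 1732) and macrophages (49 and 265). Of the 10 genes that led each of these classes by fold over the others, 2 to 7 were markers of its own list, which the gate selects, and in cardiomyocytes the rest included Myl2, a ventricular myosin light chain. All markers of its own list were found in each of the 4 classes other than blood cells, and they summed to 22516 and 23645 CPM in cardiomyocytes, 3884 and 4856 CPM in endothelial/endocardial cells, 2891 and 3657 CPM in cushion/outflow mesenchyme and 2580 and 3326 CPM in epicardial cells (CPM is UMIs scaled to 1000000 UMIs of the class). Erythroid markers summed to between 1050 and 4916 CPM in these 4 classes of the knockout-labelled library and between 9754 and 25926 CPM in those of the wildtype-labelled library. All 12 were found in each case but wildtype-labelled endothelial/endocardial cells, where 11 were found and Klf1 was at 0. The part of erythroid RNA in the differences below was not tested. The libraries differed in other ways that the genotype labels do not describe. Hemoglobin made up 7.37% of the UMIs of barcodes with under 100 UMIs in the knockout-labelled library, against 26.5% in the wildtype-labelled library. The adult share of beta-globin UMIs in erythroid cells was 4.35% and 20.7%. Hmga2, a gene of early embryonic cells, had 718 and 167 CPM in epicardial cells, and Ckm, a muscle creatine kinase, had 3.06 and 190 CPM in cardiomyocytes. The stage of the hearts and the genotype cannot be told apart in these libraries. Bub1b itself had 31.8 CPM in knockout-labelled and 57.5 CPM in wildtype-labelled cardiomyocytes, a log2 ratio of -0.86 [-1.04, -0.68]. It was not lower in epicardial cells (0.82) or endothelial/endocardial cells (0.36). Which exons lie between the loxP sites is not stated in the sources used here, so UMIs from the 3' end may not report the deletion.

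The genes differed in which class held the highest level. Among the 6 classes compared, Igf2, H19, Mest and Plagl1 had their highest levels in endothelial/endocardial cells in both libraries. Peg3, Dlk1, Meg3, Rian and Mirg were highest in epicardial cells in both. Grb10 was highest in cardiomyocytes, where in the wildtype-labelled library its interval overlapped that of epicardial cells. On the scale of all UMIs, each of the 10 genes was lowest of these 6 classes in erythroid cells or macrophages in both libraries. In the wildtype-labelled library the intervals of these 2 blood classes overlapped for every gene but Meg3 and Plagl1. Hemoglobin took 44.8% of the UMIs of knockout-labelled and 80.6% of those of wildtype-labelled erythroid cells. This lowers the CPM of their other genes, and the order of classes without hemoglobin UMIs was not tested.

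**Figure D1:**
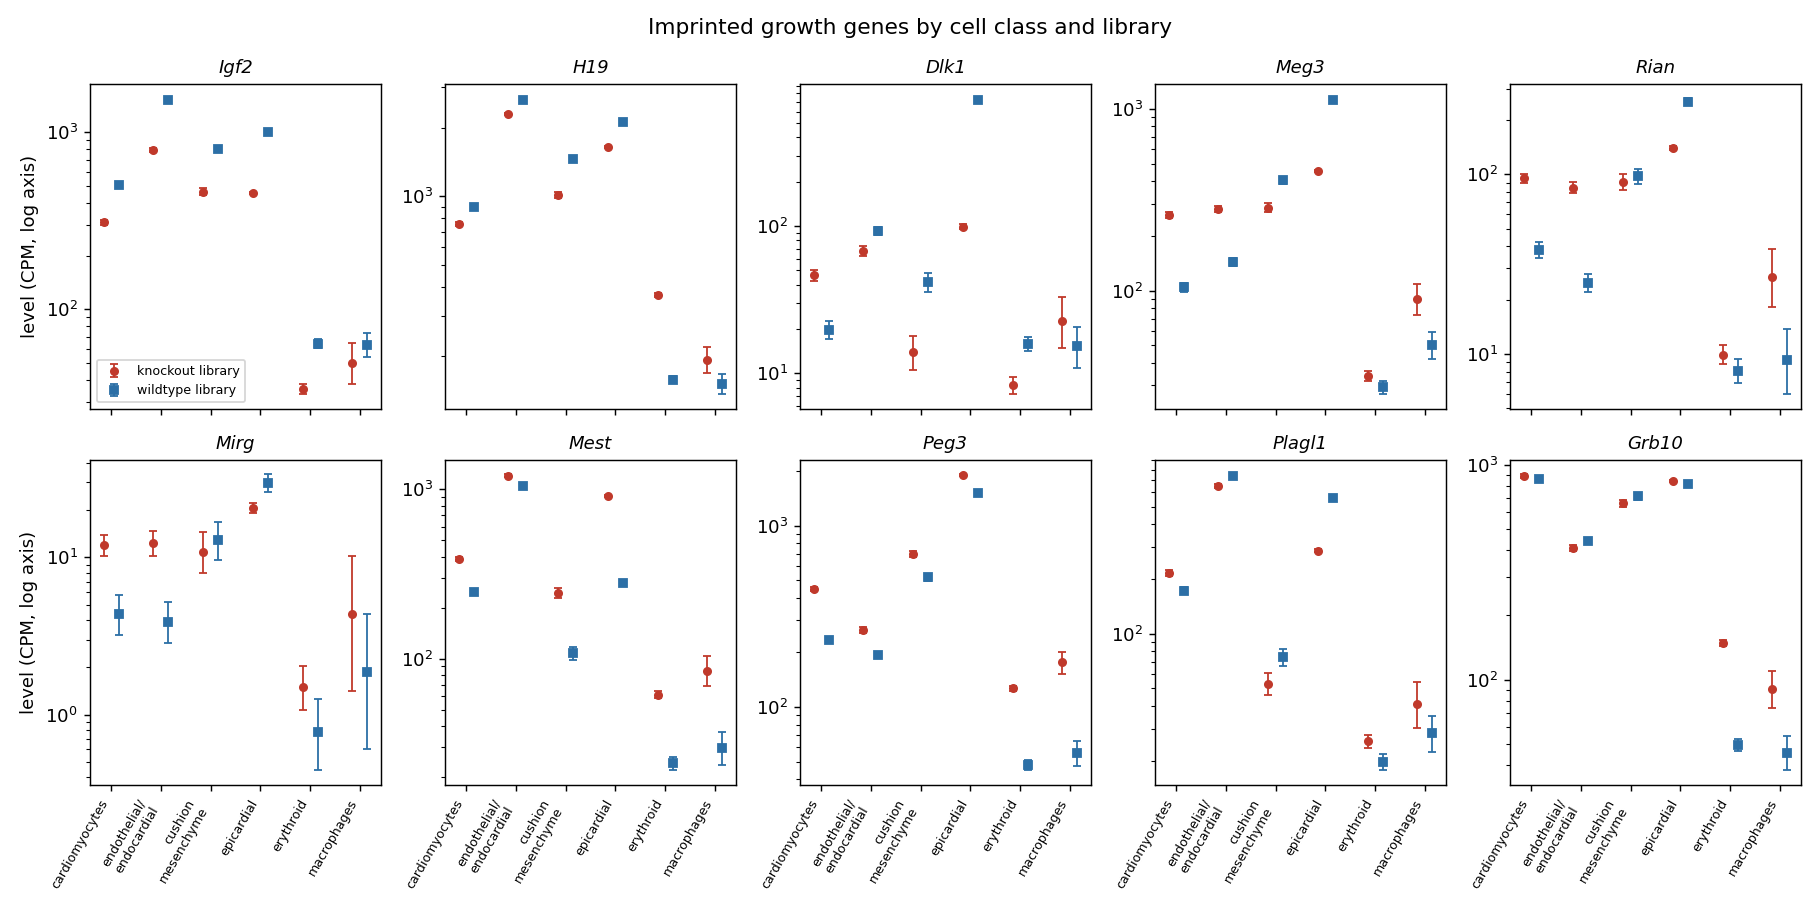
Level of each of the 10 genes by cell class, in CPM on a log axis, with red circles for the knockout library at the left of each class and blue squares for the wildtype library at its right. Bars are 95% counting intervals of 1 library each. Igf2 is lower in the knockout library in the 4 classes other than blood cells, while Dlk1 and Meg3 are higher in its cardiomyocytes and lower in its epicardial cells.

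The log2 ratios below are of the level in the library labelled knockout over that in the library labelled wildtype, for genes with 20 UMIs or more over both libraries in a class. In cardiomyocytes 4 of the 10 genes (Dlk1, Meg3, Rian and Mirg) were at least 2-fold higher and 0 at least 2-fold lower, where 4.99% and 5.0% of 14074 genes were. In endothelial/endocardial cells 2 (Rian and Mirg) were higher and 0 lower, against 2.17% and 8.67% of 13808 genes. Cushion/outflow mesenchymal cells had 1 gene higher (Mest) and 1 lower (Dlk1), against 2.72% and 10.6% of 12372 genes. Epicardial cells had 1 higher (Mest) and 3 lower (Igf2, Dlk1 and Meg3), against 6.28% and 12.0% of 15559 genes. Genes of the group went both ways in each class. The intervals of 8 genes lay above 0 and of 2 below 0 in cardiomyocytes, and of 5 and 5 in endothelial/endocardial cells. They were 2 and 6 in cushion/outflow mesenchymal cells and 2 and 7 in epicardial cells. Dlk1, Meg3, Rian and Mirg are neighbours at 1 locus, so they may not be independent of each other in these counts. The median log2 ratio of the group was 0.80 in cardiomyocytes, 0.05 in endothelial/endocardial cells, -0.36 in cushion/outflow mesenchymal cells and -0.69 in epicardial cells, beside 0.05, -0.11, -0.07 and -0.05 for all genes of the same classes.

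**Figure D2:**
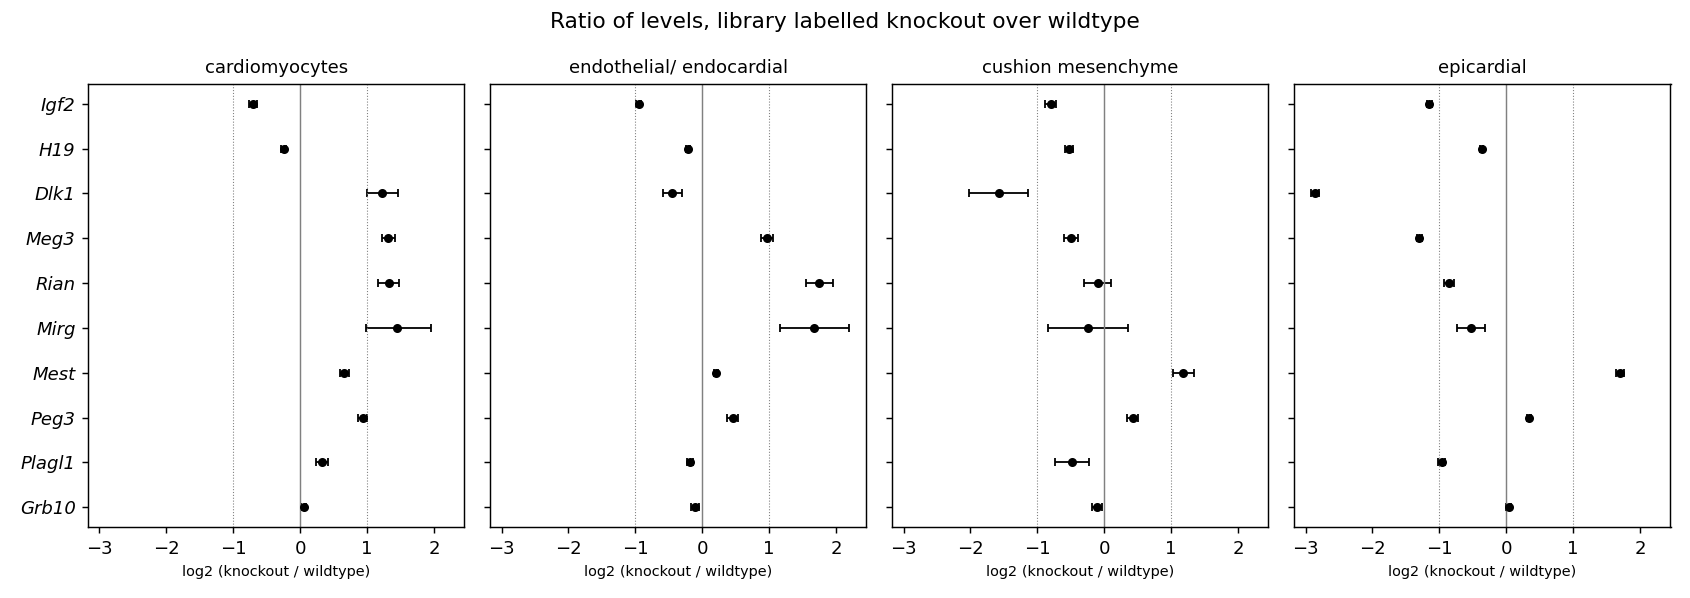
Log2 ratio of the level in the knockout library over the wildtype library for each of the 10 genes in 4 cell classes, with 95% counting intervals. The dotted lines mark a 2-fold difference, which Dlk1, Meg3, Rian and Mirg pass upwards in cardiomyocytes and Igf2, Dlk1 and Meg3 pass downwards in epicardial cells.

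Igf2, the growth factor of the group, was lower in the library labelled knockout in every one of these 4 classes. It had 309 CPM in knockout-labelled and 505 CPM in wildtype-labelled cardiomyocytes (4142 and 5547 UMIs), a log2 ratio of -0.71 [-0.76, -0.65]. In endothelial/endocardial cells it had 794 and 1531 CPM, a ratio of -0.95 [-0.99, -0.91], which is -0.84 relative to the median gene of that class. Of the 6 classes, these cells had the highest Igf2 level in both libraries. The levels were 460 and 801 CPM in cushion/outflow mesenchymal cells (-0.80 [-0.88, -0.72]). Epicardial cells had 455 and 1009 CPM, the largest of these differences at -1.15 [-1.19, -1.11]. In the knockout-labelled library the intervals of the epicardial and the cushion/outflow level overlapped, whereas in the wildtype-labelled library the epicardial level was above it.

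The share of cells with an Igf2 UMI differed in the same direction once every cell was thinned to 3000 UMIs. It was 73.5% of knockout-labelled and 93.1% of wildtype-labelled epicardial cells, and 59.6% and 74.9% of cardiomyocytes. Before thinning the shares were 99.2% and 99.3% of epicardial cells and 93.6% and 97.0% of cardiomyocytes, so nearly every cell of these 2 classes held an Igf2 UMI at full depth. In erythroid cells, which should lack most of this RNA, the shares were 7.67% and 13% thinned and 25.0% and 28.9% before thinning, at medians of 20681.5 and 11503 UMIs per cell, beside 17472.5 and 8690 in epicardial cells and 18778 and 14670 in cardiomyocytes. Hemoglobin took 44.8% and 80.6% of erythroid UMIs, which left fewer UMIs for other genes after thinning. The erythroid shares are thus not at equal depth with the other classes or between the libraries.

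**Figure D3:**
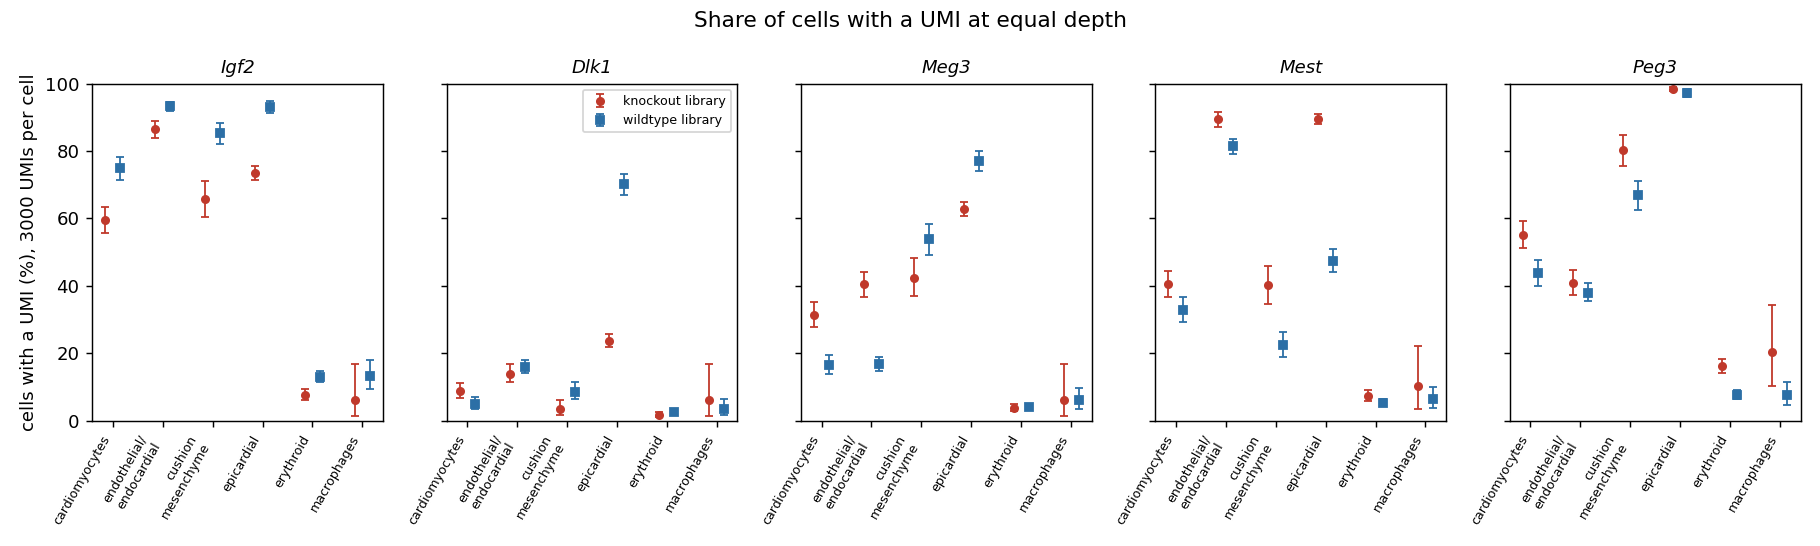
Share of cells with at least 1 UMI of Igf2, Dlk1, Meg3, Mest and Peg3, in percent, after each cell was thinned to 3000 UMIs, by cell class. Red circles are the knockout library and blue squares the wildtype library, with exact 95% binomial intervals. The 3000 UMIs include hemoglobin, which took 44.8% and 80.6% of erythroid UMIs. Dlk1 was found in 23.8% of epicardial cells of the knockout library and 70.1% of those of the wildtype library.

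H19 encodes a long noncoding RNA that is transcribed from the same imprinted domain as Igf2 and restrains growth in the mouse. It was lower in the library labelled knockout in the same 4 classes, by less than Igf2. Its levels were 755 and 897 CPM in cardiomyocytes (-0.25 [-0.29, -0.21]) and 2291 and 2651 CPM in endothelial/endocardial cells (-0.21 [-0.24, -0.19]). They were 1011 and 1460 CPM in cushion/outflow mesenchymal cells (-0.53 [-0.59, -0.47]) and 1647 and 2124 CPM in epicardial cells (-0.37 [-0.39, -0.34]). The number of Igf2 UMIs per H19 UMI was therefore lower in each class. It was 0.410 in knockout-labelled and 0.563 in wildtype-labelled cardiomyocytes, 0.346 and 0.577 in endothelial/endocardial cells, 0.455 and 0.549 in cushion/outflow mesenchyme and 0.276 and 0.475 in epicardial cells. The intervals of the libraries did not overlap in any of the 4 classes. In barcodes with under 100 UMIs, which hold mainly RNA that was free in the suspension, the same number was 0.348 and 0.396, closer to each other than in any of the 4 classes.

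**Figure D4:**
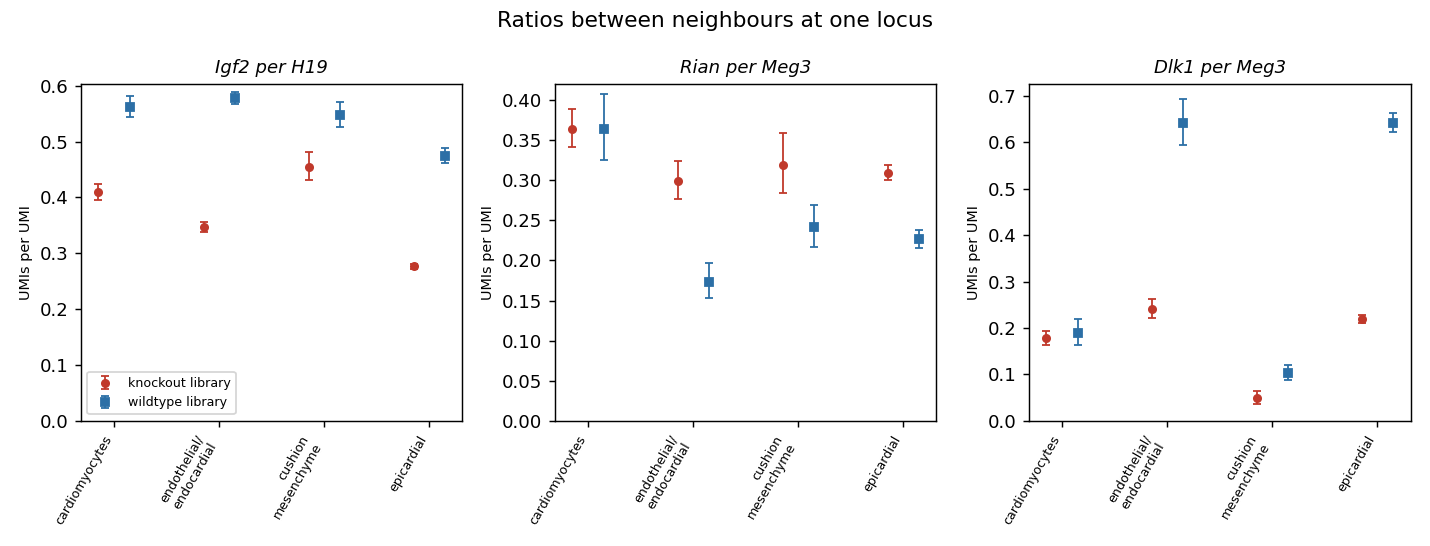
UMIs of Igf2 per UMI of H19, of Rian per UMI of Meg3 and of Dlk1 per UMI of Meg3 in 4 cell classes, with the knockout library in red circles and the wildtype library in blue squares and 95% counting intervals. Igf2 per H19 is lower in the knockout library in all 4 classes, and Dlk1 per Meg3 is lower in 3 of them but overlaps in cardiomyocytes.

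Within a library, cells with more Igf2 also tended to hold more H19. After thinning, Pearson's r over cells of the pair was 0.467 in knockout-labelled and 0.455 in wildtype-labelled endothelial/endocardial cells, 0.262 and 0.244 in cardiomyocytes, 0.304 and 0.451 in cushion/outflow mesenchyme and 0.147 and 0.245 in epicardial cells. These values describe sparse counts of cells that share a library.

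Of the 10 genes, Dlk1 and Meg3 of the chromosome 12 cluster were past 2-fold in opposite directions in different classes. Dlk1 encodes a membrane protein related to Notch ligands, while Meg3, Rian and Mirg are noncoding RNAs, with Rian a host of small nucleolar RNAs. The 250 bases upstream of the RefSeq start of Dlk1 and of Meg3 are shown because these neighbours are expressed from opposite parental copies and differed in the same direction in epicardial cells and cardiomyocytes but not in endothelial/endocardial cells. Both are on the plus strand of GRCm38.p6, Dlk1 at chr12:109452573-109452822 and Meg3 at chr12:109540746-109540995, and capitals mark matches to the letters TATAAA on either strand.
Dlk1 upstream: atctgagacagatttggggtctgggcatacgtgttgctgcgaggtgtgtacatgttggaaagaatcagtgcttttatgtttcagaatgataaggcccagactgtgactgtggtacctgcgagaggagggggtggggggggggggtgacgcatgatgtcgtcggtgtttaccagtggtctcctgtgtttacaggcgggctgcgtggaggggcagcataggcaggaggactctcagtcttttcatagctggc
Meg3 upstream: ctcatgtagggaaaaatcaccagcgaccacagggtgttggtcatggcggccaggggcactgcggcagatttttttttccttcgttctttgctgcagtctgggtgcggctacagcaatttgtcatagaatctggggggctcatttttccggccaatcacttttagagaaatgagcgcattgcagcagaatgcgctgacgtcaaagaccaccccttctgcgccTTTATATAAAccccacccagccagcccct
The capitals in the Meg3 sequence are 2 overlapping matches, 1 on each strand, just upstream of the start. The windows searched run from 250 bases before to 50 bases after each start, and TATAAA stood in 13.6% of 32851 RefSeq promoters of that length. The core motif of CTCF (0.122% of promoters) and the letters GGGGCCCC (1.08%) and GCCATNTT (6.05%) were also searched on both strands. Of the 16 promoter windows held for 9 of the genes, these gave 1 match, of GGGGCCCC in Peg3. The windows searched hold 9 CpG pairs for Dlk1 and 13 for Meg3, of which 8 and 10 lie in the upstream bases shown, where the median window holds 7.

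In epicardial cells Dlk1 had the largest difference of any of the 10 genes in the 4 classes. Its level was 99.4 CPM in knockout-labelled and 718 CPM in wildtype-labelled epicardial cells (3693 and 5705 UMIs), a log2 ratio of -2.85 [-2.91, -2.79]. Thinned, 23.8% [21.9, 25.7] of knockout-labelled and 70.1% [66.9, 73.2] of wildtype-labelled epicardial cells held a Dlk1 UMI, and 66.9% and 88.3% did before thinning. Both the level and the share of cells with the RNA were thus lower. Meg3 was lower there too, at 453 and 1118 CPM (-1.30 [-1.34, -1.27]), as were Rian at 140 and 253 CPM (-0.85 [-0.93, -0.78]) and Mirg at 20.6 and 29.7 CPM (-0.53 [-0.74, -0.31]). All 4 genes of the cluster were lower in this class, with Dlk1 furthest. Markers of other fibroblastic mesenchyme (7 of 8 found in the knockout-labelled library, with Dpt at 0, and 8 of 8 in the other) summed to 607 CPM in knockout-labelled and 1568 CPM in wildtype-labelled epicardial cells, and their part in these differences was not tested. A class gated on those markers held 0 cells of the knockout-labelled library, which allows a share of up to 0.0503%, and 350 cells of the wildtype-labelled library. These 350 cells had 347 CPM of Dlk1 and 862 CPM of Meg3, each below the level in the epicardial cells of the same library.

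In cardiomyocytes the 4 genes were higher in the library labelled knockout. Meg3 had 260 CPM in knockout-labelled and 104 CPM in wildtype-labelled cardiomyocytes (3486 and 1147 UMIs), a ratio of 1.32 [1.22, 1.42]. Rian had 95 and 38.0 CPM, a ratio of 1.32 [1.16, 1.48], and Mirg 12.0 and 4.37 CPM (160 and 48 UMIs), a ratio of 1.45 [0.98, 1.95]. Meg3 was found in 31.5% and 16.5% of thinned cardiomyocytes, against 3.79% and 3.93% of thinned erythroid cells. Free RNA was at most 7.05% and 15% of all UMIs in cardiomyocytes and 4.33% and 4.78% in erythroid cells, so the erythroid share is not the background of cardiomyocytes. Hemoglobin took 44.8% and 80.6% of erythroid UMIs, so these thinned shares are also not at equal depth for other genes. Dlk1 had 46.3 and 19.7 CPM (620 and 217 UMIs), a ratio of 1.23 [1.01, 1.46]. Its wildtype-labelled level is close to the 15.3 CPM of macrophages of the same library, and their intervals overlapped. At most 82.0% of the Dlk1 UMIs of those macrophages could be free RNA. At most 11% of the Dlk1 UMIs of knockout-labelled and 68.6% of those of wildtype-labelled cardiomyocytes could be free RNA, and for Meg3 at most 6.85% and 31.9%. With those UMIs subtracted the ratio of Dlk1 was 2.60, so its size is not settled by these libraries. Epicardial markers, 9 of 9 found in each library, summed to 244 CPM in knockout-labelled and 148 CPM in wildtype-labelled cardiomyocytes, and their part in these differences was not tested.

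Endothelial/endocardial cells separated Dlk1 from its neighbours. Rian was higher in knockout-labelled cells, at 84.1 and 25.0 CPM (1.75 [1.56, 1.95]), and so were Mirg at 12.4 and 3.89 CPM (1.67 [1.16, 2.20]) and Meg3 at 281 and 144 CPM (0.97 [0.88, 1.05]). Dlk1 was lower, at 67.9 and 92.4 CPM (-0.45 [-0.59, -0.30]). The number of Dlk1 UMIs per Meg3 UMI was 0.241 in knockout-labelled and 0.642 in wildtype-labelled endothelial/endocardial cells and 0.219 and 0.642 in epicardial cells, but 0.178 and 0.189 in cardiomyocytes, where the intervals overlapped. Rian per Meg3 was 0.365 and 0.364 in cardiomyocytes, with overlapping intervals. In the 3 other classes it was higher in the library labelled knockout, at 0.299 and 0.174 in endothelial/endocardial cells, 0.319 and 0.241 in cushion/outflow mesenchyme and 0.309 and 0.226 in epicardial cells. In barcodes with under 100 UMIs, Rian per Meg3 was also higher in that library, at 0.373 and 0.261. Dlk1 per Meg3 was lower there, at 0.287 and 0.407. The part of free RNA in these differences was not tested.

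Cushion/outflow mesenchymal cells had lower Dlk1 in the library labelled knockout, at 14 and 41.6 CPM (58 and 178 UMIs), a ratio of -1.57 [-2.03, -1.14]. Meg3 had 286 and 404 CPM (-0.50 [-0.61, -0.39]), while the intervals of Rian (-0.10 [-0.30, 0.11]) and Mirg (-0.24 [-0.85, 0.35]) held 0. This class was not matched between the libraries. Markers of other fibroblastic mesenchyme (7 of 8 found in the knockout-labelled library, with Tnxb at 0, and 8 of 8 in the other) summed to 48.2 CPM in its knockout-labelled and 1049 CPM in its wildtype-labelled cells. With only cells that held no UMI of those markers, 218 and 23 cells, Dlk1 stayed lower (-1.30) and Igf2 too (-0.68), but Meg3 turned to 0.54, Grb10 to 0.30 and Mest to -0.79. The directions of Meg3, Grb10 and Mest in this class thus depend on the cells taken, and the second set rests on 23 wildtype-labelled cells.

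A minor class in the library labelled knockout held the highest levels of the cluster among all classes of either library. Its 62 cells were gated on hepatic markers, which no cell of the wildtype-labelled library met (0 allows a share of up to 0.0403%). They had 2058 CPM of Dlk1, 2983 CPM of Meg3, 844 CPM of Rian and 143 CPM of Mirg, and each of the 62 held a Dlk1 UMI after thinning. Dlk1 is a known marker of fetal liver progenitors. Mest and Plagl1 were low there, at 71.4 and 36.0 CPM. No ratio between the libraries could be given for this class, whose cells are part of the totals over all kept cells and of the likeness between genes. The 18 epithelial cells of the knockout-labelled library also had high levels, at 1148 CPM of Dlk1 and 2082 CPM of Meg3, beside 0 and 5 UMIs in the 5 epithelial cells of the wildtype-labelled library, too few for a comparison.

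Mest and Peg3, both expressed from the paternal copy, were higher in the library labelled knockout in the 4 classes. Mest encodes a protein of the alpha/beta hydrolase fold that is widespread in mesoderm. It had 908 CPM in knockout-labelled and 279 CPM in wildtype-labelled epicardial cells (1.70 [1.64, 1.77]), and 89.6% and 47.5% of thinned epicardial cells held a UMI of it. In cushion/outflow mesenchyme it had 244 and 107 CPM (1.18 [1.02, 1.35]), a direction that turned with the cells taken, as given above. Cardiomyocytes had 388 and 246 CPM (0.66 [0.59, 0.73]). The smallest difference was in endothelial/endocardial cells, where its level was highest in both libraries, at 1199 and 1039 CPM (0.21 [0.17, 0.24]). Mest thus differed most in the class where Dlk1 differed most, in the opposite direction.

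Peg3 encodes a zinc finger protein. Its levels were 450 and 235 CPM in cardiomyocytes (0.93 [0.87, 1.00]), 266 and 194 CPM in endothelial/endocardial cells (0.46 [0.38, 0.54]), 696 and 518 CPM in cushion/outflow mesenchyme (0.43 [0.35, 0.51]) and 1897 and 1501 CPM in epicardial cells (0.34 [0.31, 0.37]). The difference was under 2-fold in each, though in cardiomyocytes it passed 2-fold with a mitochondrial limit of 10% (1.002) and with free RNA subtracted (1.06). Nearly every thinned epicardial cell held Peg3, 98.6% in the knockout-labelled and 97.3% in the wildtype-labelled library, so it was not confined to a subset of that class. In cushion/outflow cells without fibroblastic marker UMIs the ratio was 0.01.

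Plagl1, a zinc finger transcription factor also called Zac1, differed between classes. It had 285 and 558 CPM in epicardial cells (-0.97 [-1.02, -0.92]) and 53.1 and 74.1 CPM in cushion/outflow mesenchyme (-0.48 [-0.74, -0.23]). In endothelial/endocardial cells, its main site, the levels were 647 and 737 CPM (-0.19 [-0.23, -0.14]). In cardiomyocytes it was higher, at 216 and 172 CPM (0.33 [0.24, 0.41]). Grb10, an adaptor that binds the insulin and insulin-like growth factor receptors and restrains their signal, was close to even. Its ratios were 0.05 [0.01, 0.09] in cardiomyocytes (886 and 855 CPM), -0.10 [-0.16, -0.04] in endothelial/endocardial cells (411 and 441 CPM), -0.11 [-0.18, -0.03] in cushion/outflow mesenchyme (663 and 714 CPM) and 0.04 [-0.00, 0.07] in epicardial cells (839 and 818 CPM). The sign of these small ratios turned with the scaling in cardiomyocytes and endothelial/endocardial cells, where the ratios relative to the median gene were -0.00124 and 0.00825.

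Within cardiomyocytes, most differences were larger in cells of ventricular type. Cardiomyocytes were scored for ventricular markers such as Myl2 and Irx4 and atrial markers such as Sln and Nr2f2, which gave 491 and 503 ventricular-scored and 138 and 174 atrial-scored cells. Meg3 had 282 CPM in knockout-labelled and 94.7 CPM in wildtype-labelled ventricular-scored cells (1.58 [1.46, 1.69]), against 155 and 139 CPM in atrial-scored cells (0.15 [-0.07, 0.37]). For Dlk1 the levels were 49.1 and 15.9 CPM in ventricular-scored cells (1.63 [1.35, 1.91]) and 33.2 and 33.7 CPM in atrial-scored cells (-0.02 [-0.50, 0.45]). Rian showed the same split, at 1.54 [1.36, 1.72] and 0.14 [-0.25, 0.53]. The intervals of the ventricular-scored and atrial-scored ratios did not overlap for any of these 3 genes, though with 1 library per group the difference between chambers was not tested. For Mirg they overlapped, at 1.57 [1.04, 2.15] in ventricular-scored and 0.92 [-0.15, 2.07] in atrial-scored cells, the latter from 22 and 12 UMIs.

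Mest had opposite directions in the chambers. Ventricular-scored cells had 409 CPM in the knockout-labelled and 178 CPM in the wildtype-labelled library (1.20 [1.12, 1.29]), and atrial-scored cells 285 and 492 CPM (-0.79 [-0.93, -0.65]). The knockout-labelled library thus had more Mest in ventricular-scored cells, and the wildtype-labelled library more in atrial-scored cells. Peg3 was higher in both, at 411 and 173 CPM in ventricular-scored cells (1.24 [1.16, 1.33]) and 637 and 460 CPM in atrial-scored cells (0.47 [0.36, 0.58]). Igf2 was lower in both by about the same, at -0.68 [-0.75, -0.62] and -0.75 [-0.88, -0.62]. In ventricular-scored cells 6 of the 10 genes were at least 2-fold higher and 0 lower, where 5.39% and 4.75% of 13547 genes were. In atrial-scored cells 0 were higher and 0 lower, against 4.32% and 4.22% of 10901 genes.

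**Figure D5:**
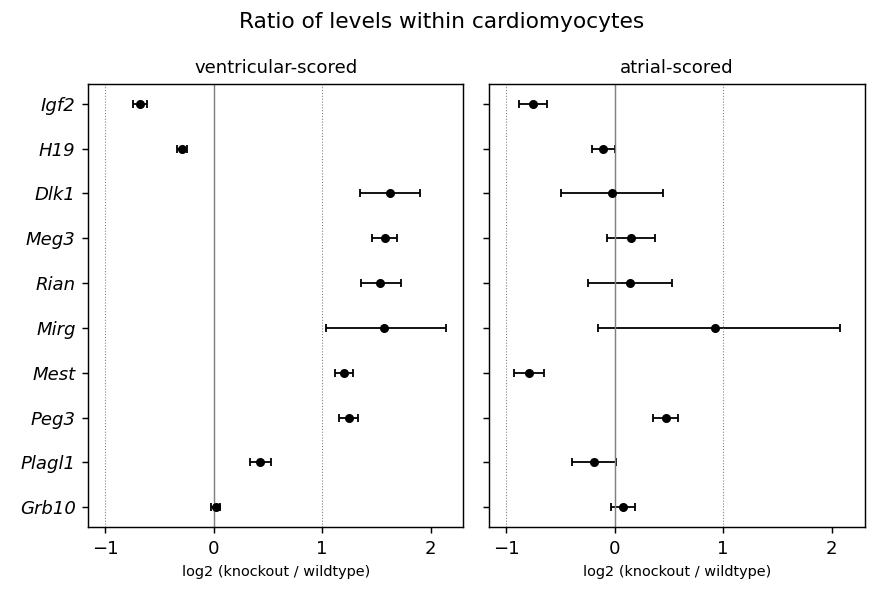
Log2 ratio of the level in the knockout library over the wildtype library for the 10 genes in ventricular-scored (left) and atrial-scored (right) cardiomyocytes, with 95% counting intervals and dotted lines at a 2-fold difference. Dlk1, Meg3, Rian, Mirg, Mest and Peg3 pass the 2-fold line in ventricular-scored cells and none does in atrial-scored cells.

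On the scale of all UMIs, erythroid cells or macrophages held the lowest level of each gene among the 6 classes, and part of these UMIs may be free RNA. Not every level was low. H19 had 372 CPM in knockout-labelled and 158 CPM in wildtype-labelled erythroid cells. Before thinning 94.2% and 61.1% of those cells held an H19 UMI, and at most 17.4% and 38.5% of its UMIs could be free RNA. Grb10 had 148 and 49.7 CPM, in 80.4% and 20.6% of cells, with at most 13.9% and 38.0% free RNA. In erythroid cells free RNA could be at most 13.9% to 63.6% of the UMIs of a gene in the knockout-labelled library and 27.2% to 58.2% in the wildtype-labelled library. In wildtype-labelled macrophages the upper share of free RNA was 61% to 120% of the UMIs of each gene, so levels in that library were read as background. In the 49 knockout-labelled macrophages the upper share was 3.97% to 16.4%. The macrophage ratios are thus set against a background level. Of the 9 genes with at least 20 UMIs in macrophages, 3 (Rian, Mest and Peg3) were at least 2-fold higher and 0 lower, where 6.07% and 10.3% of 10288 genes were. In erythroid cells 4 of the 10 were higher (H19, Mest, Peg3 and Grb10) and 0 lower, where 64.4% and 6.33% of 12759 genes were. The median gene of erythroid cells was at 1.53, and hemoglobin took 44.8% of the UMIs of knockout-labelled and 80.6% of those of wildtype-labelled erythroid cells. Relative to that median gene, 9 of the 10 genes were below 0 and Grb10 was at 0.04. Igf2 was lower in erythroid cells on both scales, at 35.5 and 64.1 CPM (-0.85 [-0.97, -0.73]).

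Other imprinted genes did not follow 1 direction either. Of a list of 44 imprinted genes besides these 10, 43 were found by symbol. Of those with at least 20 UMIs, 5 of 35 were at least 2-fold higher and 1 lower in cardiomyocytes, 2 of 36 and 1 in endothelial/endocardial cells, 2 of 33 and 1 in cushion/outflow mesenchyme, and 2 of 38 and 3 in epicardial cells. The shares over all genes were 4.99% and 5.0%, 2.17% and 8.67%, 2.72% and 10.6%, and 6.28% and 12.0%. Counts this small in 33 to 38 genes are no result about the list. The median ratios of the listed genes were 0.22, -0.08, 0.02 and -0.17, beside 0.05, -0.11, -0.07 and -0.05 for all genes. Cdkn1c, an inhibitor of cyclin-dependent kinases, was among the highest in cardiomyocytes, at 1061 and 367 CPM (1.53), and in endothelial/endocardial cells, at 6590 and 3706 CPM (0.83). In cardiomyocytes Peg10 (1.75) and Phlda2 (1.89) stood above it, and Kcnq1 (-1.10), Cobl (-0.82) and Osbpl5 (-0.63) were lowest. In epicardial cells Asb4 had 85.4 and 8.05 CPM (3.41), followed by Peg10 at 75.3 and 18.1 CPM (2.05) and Snrpn (0.73), while Kcnq1 (-1.19), Cobl (-1.13) and Ndn (-0.99) were lowest. In endothelial/endocardial cells Rtl1, a paternally expressed gene of the chromosome 12 cluster, was highest (1.19, from 34 and 18 UMIs), ahead of Slc38a4 (1.10), and Zrsr1 (-0.88), Blcap (-0.84) and Mkrn3 (-0.59) were lowest. Cushion/outflow mesenchyme had Peg10 (0.84), Zim1 (0.77) and Cdkn1c (0.68) highest and Cobl (-1.67), Ppp1r9a (-0.55) and Osbpl5 (-0.53) lowest. Genes with at least 50 UMIs were used for these ranks.

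The pathway on which Igf2 acts was described with 22 other genes. In cardiomyocytes 1 was at least 2-fold higher and 1 lower, in endothelial/endocardial cells 1 and 2, in cushion/outflow mesenchyme 1 and 3, and in epicardial cells 2 and 3. Over all genes the shares higher and lower were 4.99% and 5.0%, 2.17% and 8.67%, 2.72% and 10.6%, and 6.28% and 12.0% in these classes, so counts this small in 22 genes lie near the background and are no result about the pathway. Igfbp5, a secreted protein that binds insulin-like growth factors, turned between classes as Meg3 did between cardiomyocytes and epicardial cells. It had 425 CPM in knockout-labelled and 158 CPM in wildtype-labelled cardiomyocytes (1.42), but 273 and 904 CPM in endothelial/endocardial cells (-1.72), 87.6 and 274 CPM in cushion/outflow mesenchyme (-1.64) and 472 and 1011 CPM in epicardial cells (-1.10). Another binding protein, Igfbp3, was lower in endothelial/endocardial cells (-1.92) and epicardial cells (-1.34). Igf2bp1, which binds the messenger RNA of Igf2, was higher in cushion/outflow mesenchyme (1.21), epicardial cells (1.08) and endothelial/endocardial cells (0.76). Of the receptors, Igf1r had ratios of 0.20 in cardiomyocytes and 0.49 in epicardial cells, and Igf2r, which removes Igf2, had -0.19 and 0.25. Insr, the insulin receptor, was at -0.79 and -0.68. Igf1 itself was lower in cardiomyocytes, at 17.6 and 41.7 CPM (-1.25).

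The likeness between genes was measured over the 14 class profiles with at least 50 cells, as Pearson's r of log2(CPM + 10). The profiles share libraries and classes, and the values are descriptions. One of them is the knockout-labelled hepatic class, in which Dlk1, Meg3, Rian and Mirg were far above every other profile, so each value is followed by that over the other 13 profiles, a setting added after seeing the data. Meg3 and Rian were most alike of the 10 genes on both (0.987 and 0.982), followed by Rian and Mirg (0.944 and 0.973). Igf2 and H19 had 0.923 and 0.930, and Meg3 and Mirg 0.919 and 0.958. These are all neighbours. Dlk1 was less like Meg3 (0.888 and 0.828). Mirg and Mest were the least alike over 14 profiles (0.0792), but had 0.503 without the hepatic profile, where Dlk1 and Mest were lowest (0.420).

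Over all genes with at least 200 UMIs, the gene most like each of the 10 was the same with and without the hepatic profile for 5 of them. These were Amotl1 for Igf2 (0.970 and 0.975), Tjp1 for H19 (0.970 and 0.974), Rian for Meg3, Meg3 for Rian, and Fzd4 for Plagl1 (0.940 and 0.966). For the other 5 it changed. Dlk1 was most like Tmem150a (0.940) with the hepatic profile and Hoxb2 (0.962) without it, and Mirg like Steap2 (0.964) and then Rian (0.973). Peg3 was most like Usp29, its imprinted neighbour on the opposite strand (0.974), which came second without the hepatic profile (0.975) after Hs6st2 (0.986). Mest was most like Tmem108 (0.925) and then Pdlim1 (0.955), and Grb10 like Gstm5 (0.955) and then Tead1 (0.970). Of the 3 genes most like each of the 10, 8 in all were shared between the lists with and without the hepatic profile.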

How the data were processed

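The deposited files hold raw UMI counts per gene and barcode for all barcodes, which the authors made with Cell Ranger 7.1.0 and build mm10, per the file headers and also the submitters' processing notes. Depth was 130039314 UMIs in the library labelled knockout and 122834180 in the library labelled wildtype. Barcodes with at least 3000 UMIs, at least 500 genes and at most 20% mitochondrial UMIs were kept. The gene minimum removed 15 and 3642 barcodes, in which hemoglobin made up 13.1% and 88.7% of UMIs.

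A class score was the mean over its markers of log(1 + UMIs per 10000), each divided by its 99th percentile and capped there. The highest score named the class if it was at least 0.35 and 0.1 above the next, and other cells stayed in none. These 2 limits were kept after class sizes had been seen at 4 settings and the genes' levels at 0.35, so they were not fixed beforehand. No doublet caller was run. Near ties between classes (108 and 284 cells) were left out, and a version without the top 5% of cells was tried. UMIs were summed per class and library and divided by all UMIs of those cells (CPM). Levels have exact Poisson intervals, ratios exact conditional binomial intervals and shares Clopper-Pearson intervals (95%). For shares, cells were thinned to 3000 UMIs. The upper share of free RNA in a class came from its hemoglobin (for erythroid cells, its cardiomyocyte markers) and the profile of barcodes with under 100 UMIs. No count model was fitted and no test run.

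The genes, lists and markers were chosen with earlier results of these data known. All 10 genes are named, with the genes most like each (the 3 nearest were found) and, of each list, the 3 highest and 3 lowest in a class, of which some are printed. The motifs, the sequences shown, the genes in the plot of shares, the comparisons between neighbours' UMI numbers singled out in the text, and the 2-fold minimum for opposite directions were chosen after values were seen. Promoters and microRNAs came from RefSeq (GRCm38.p6). Python 3.11.15, numpy 2.4.6, scipy 1.17.1, pandas 2.3.3 and matplotlib 3.10.9 were used, and the summing and interval steps were tested on simulated data.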

Additional observations from a re-analysis of the deposited data

Results flagged for a closer look

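Dlk1 and Meg3 were at least 2-fold apart between the libraries in opposite directions in different cell classes. On the log2 scale, knockout-labelled over wildtype-labelled, the ratio was 1.23 for Dlk1 in cardiomyocytes, against -1.57 in cushion/outflow mesenchymal cells and -2.85 in epicardial cells. For Meg3 it was 1.32 in cardiomyocytes and -1.30 in epicardial cells. At most 68.6% of the Dlk1 UMIs of wildtype-labelled cardiomyocytes could be free RNA, and other settings gave Dlk1 ratios in cardiomyocytes from 0.88 to 2.60. Thinned, 8.74% of knockout-labelled and 5.02% of wildtype-labelled cardiomyocytes held a Dlk1 UMI, with overlapping intervals. In atrial-scored cardiomyocytes the ratios were -0.02 for Dlk1 and 0.15 for Meg3. The cushion/outflow class was not matched between the libraries. With 1 library per genotype the difference between classes was not tested.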

How the results depend on the processing

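For levels and ratios 16 other settings were tried, 3 of them chosen after seeing the data (gates at 0.3 and 0.1 and at 0.4 and 0.15, and cells without fibroblastic marker UMIs). In the 4 classes other than blood cells, under every setting run on whole classes, Igf2 stayed lower in the library labelled knockout (log2 ratios from -1.20 to -0.64) and Mest and Peg3 stayed higher (from 0.14 and 0.24 upwards). In epicardial cells Dlk1 stayed between -2.93 and -2.80 and Meg3 between -1.36 and -1.25, and in cardiomyocytes Dlk1 between 0.88 and 2.60 and Meg3 between 1.04 and 1.65. The counts and medians that moved were mostly those of blood cells, and the cause was not tested. Under the stricter gate (0.5 and 0.2), 1 gene was 2-fold lower in endothelial/endocardial cells, the median ratio was 1.27 in erythroid cells and 0.41 in macrophages, and Dlk1 in erythroid cells turned to 0.91. At 0.4 and 0.15 the erythroid median was 0.97, the macrophage median 0.24 and 1 gene was higher in macrophages. With free RNA subtracted, 1 gene was lower in endothelial/endocardial cells and 2 in erythroid cells, with medians of 1.21 in erythroid cells and 3.46 in macrophages, and Grb10 in cardiomyocytes was -0.026. Relative to the median gene, the endothelial/endocardial median was 0.16, Grb10 was -0.00124 in cardiomyocytes and 0.00825 in endothelial/endocardial cells, and in erythroid cells 0 genes were higher and 5 lower with a median of -0.87. There H19 turned to -0.30, Meg3 to -1.33, Rian to -1.23, Mirg to -0.59, Mest to -0.19, Peg3 to -0.13 and Plagl1 to -1.16. Without hemoglobin and mitochondrial UMIs, 0 were higher and 5 lower in erythroid cells, the median was -0.86, the same 7 genes were -0.28, -1.31, -1.22, -0.58, -0.18, -0.12 and -1.15, and Grb10 in cardiomyocytes was -0.0088. As a mean over cells, the median was 0.53 in cardiomyocytes and 0.39 in macrophages, 1 gene was lower in erythroid cells, and Grb10 in cardiomyocytes (-0.026) and Meg3 (-0.17) and Rian (-0.16) in erythroid cells turned. Without the top 5% of cells, the median was 0.71 in cardiomyocytes, -0.059 in erythroid cells and 0.35 in macrophages, 1 gene was lower in each of endothelial/endocardial cells, erythroid cells and macrophages, and Meg3 (-0.52), Rian (-0.64) and Mirg (-0.21) turned in erythroid cells. Thinned to 3000 UMIs, the median was 0.36 in cardiomyocytes and -0.11 in erythroid cells, 1 gene was lower in macrophages, and Grb10 in cardiomyocytes (-0.036) and Meg3 (-0.16), Rian (-0.59) and Plagl1 (-0.11) in erythroid cells turned. The cardiomyocyte median was 1.22 in ventricular-scored cells and 0.025 in atrial-scored cells, where 0 genes were 2-fold higher and Dlk1 (-0.024), Mest (-0.79) and Plagl1 (-0.19) turned. In cushion/outflow cells without fibroblastic marker UMIs 0 genes were higher and 2 lower, and Meg3 (0.54), Mest (-0.79) and Grb10 (0.30) turned. The same selection gave no value in epicardial cells, where 13 knockout-labelled and 4 wildtype-labelled cells were left. No paired analysis was possible because each genotype has 1 library, and no library could be left out. Depth limits Mirg most, with 48 UMIs in wildtype-labelled cardiomyocytes and 5 in macrophages of each library.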

Other observations

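Megakaryocytes, gated on markers such as Pf4 and Ppbp and too few for the comparisons above, numbered 134 in the library labelled knockout and 44 in the library labelled wildtype. Igf2 had 90.1 and 387 CPM there, a log2 ratio of -2.10 [-2.43, -1.77], and Dlk1 30.5 and 257 CPM, a ratio of -3.08 [-3.56, -2.60]. Meg3 had 131 and 289 CPM (-1.14 [-1.48, -0.80]), while Rian had 34.8 and 37.5 CPM (-0.11 [-0.97, 0.87]). Mest was lower, at 321 and 592 CPM (-0.88 [-1.11, -0.65]), opposite to its direction in the 4 classes other than blood cells. At most 14.9% and 12.3% of the Mest UMIs could be free RNA. H19 (-1.14), Plagl1 (-1.69) and Grb10 (-0.59) were lower too, and the interval of Peg3 (-0.16 [-0.43, 0.13]) held 0. Free RNA could be at most 41.9% and 49.8% of the H19 UMIs and 41.4% and 39.9% of those of Plagl1. Free RNA could be at most 61.7% and 42.7% of the Igf2 UMIs of these cells, 25.3% and 11.6% of those of Dlk1, 20.6% and 25.3% of those of Meg3 and 28.9% and 50.8% of those of Rian. The wildtype-labelled values rest on 89 UMIs of Dlk1 and 13 of Rian.

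Cells left in no class, 944 and 1737, had 363 and 729 CPM of Igf2 (-1.01 [-1.05, -0.96]), 534 and 237 CPM of Mest (1.17 [1.12, 1.23]) and 138 and 195 CPM of Dlk1 (-0.50 [-0.58, -0.42]). Over all kept cells together Igf2 had 342 and 648 CPM (-0.92), Meg3 344 and 329 CPM (0.06) and Mest 561 and 288 CPM (0.96). These totals mix classes of different size in the libraries, so the near-even total of Meg3 does not describe its directions within classes. Epicardial cells were 32.5% of knockout-labelled and 11.1% of wildtype-labelled cells. The 62 hepatic cells gave 5392 of the 38133 Meg3 UMIs of the knockout-labelled library.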
